A study of Mus musculus with 8 samples.

Results

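The C/EBP genes encode the CCAAT/enhancer-binding proteins, a small family of transcription factors. Their messenger RNAs were followed here in Paneth cells, which sit at the bottom of small intestinal crypts and secrete antimicrobial peptides. The 6 genes that carry a C/EBP name in the GENCODE mouse annotation (Cebpa, Cebpb, Cebpd, Cebpe, Cebpg and Cebpz) were taken by symbol through their Ensembl IDs, out of 55414 IDs in the count table. The rule reads their names alone, but the family was chosen with earlier results of these data known. All 8 libraries came from WT mice without any further allele named in the labels. In 4 of them the animals had received PBS, the vehicle, and in the other 4 they had received tumor necrosis factor (TNF), an inflammatory cytokine. The small intestine was taken 3 hours after injection in both groups and Paneth cells (PCs) were collected on a cell sorter. The study describes C57BL/6J mice housed free of specific pathogens and PC samples from individual animals. The labels give neither the age of the animals nor the dose of TNF.

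C/EBP alpha, beta, delta, epsilon and gamma share a basic region that binds DNA and a leucine zipper through which they pair with each other and with other basic leucine zipper (bZIP) factors. Alpha is known for terminal differentiation of liver, fat and myeloid cells, beta and delta for the transcription of acute phase and cytokine genes in inflammation, and epsilon for granulocyte maturation. Gamma has no activation domain of its own and works through its partners, while Cebpz encodes a nucleolar protein outside the bZIP family that carries the name for its binding to CCAAT boxes.

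Cebpd and Cebpb, the members tied to inflammation, were far higher after TNF, by 13.6-fold and 4.54-fold in normalized CPM (counts scaled to a common library size). Cebpg was 1.95-fold higher with TMM scaling, though not called when libraries were scaled by their size alone. Cebpa and Cebpz were 1.48-fold and 1.32-fold higher with TMM scaling, and both calls were lost when certain single libraries were left out. Under scaling by library size alone Cebpa was not called and Cebpz turned to a log2 difference of -0.03, below 0. Cebpe had no count in any library. Per kilobase of exon, Cebpa and Cebpg were the leading bZIP members in PBS libraries, and Cebpd was level with Cebpa in TNF libraries.

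Stretches of 250 bases before the annotated start are shown for the 3 members with the largest differences, so that their letters can be read beside the values. The start used is that of the transcript marked as canonical, which for Cebpa lies a few bases inside the gene. Sequences are from GRCm39, 5′ to 3′ on the strand of the gene. Capitals in the first and second mark the letters TGACG or their reverse complement, which are the core of the site TGACGTCA known for CREB and ATF factors, and capitals in the third mark CCAAT or its reverse complement.
Cebpd promoter, chr16:15704900-15705149, plus strand: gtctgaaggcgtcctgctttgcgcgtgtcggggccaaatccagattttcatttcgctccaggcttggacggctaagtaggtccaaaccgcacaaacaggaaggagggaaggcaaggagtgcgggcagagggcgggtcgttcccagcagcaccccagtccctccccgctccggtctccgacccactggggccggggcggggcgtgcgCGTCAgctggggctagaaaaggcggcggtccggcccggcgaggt
Cebpb promoter, chr2:167530585-167530834, plus strand: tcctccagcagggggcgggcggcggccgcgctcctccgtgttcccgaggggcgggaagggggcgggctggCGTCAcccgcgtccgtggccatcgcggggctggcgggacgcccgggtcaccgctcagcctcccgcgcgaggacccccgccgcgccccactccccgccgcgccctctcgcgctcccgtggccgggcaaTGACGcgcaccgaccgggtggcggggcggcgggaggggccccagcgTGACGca
Cebpg promoter, chr7:34756012-34756261, minus strand: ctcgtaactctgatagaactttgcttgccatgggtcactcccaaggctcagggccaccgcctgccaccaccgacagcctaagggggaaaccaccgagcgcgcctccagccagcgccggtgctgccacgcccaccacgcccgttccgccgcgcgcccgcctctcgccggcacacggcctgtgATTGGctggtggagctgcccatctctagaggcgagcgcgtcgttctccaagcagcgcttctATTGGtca
The Cebpd stretch held 1 TGACG match, 44 to 40 bases before the start and on the opposite strand. The Cebpb stretch held 3, of which 1 lay 180 to 176 bases before the start on the opposite strand and the others lay 53 to 49 and 7 to 3 bases before it on the strand of the gene. The same 5 letters occurred on either strand in the 250 bases before 18% of 21757 protein-coding genes, so a match alone is common. The full site TGACGTCA was in none of the 6 stretches, against 1.7% of all genes. The Cebpg stretch held 2 CCAAT matches on the opposite strand, 69 to 65 and 8 to 4 bases before the start, against at least 1 match in 36.5% of all genes. The letters TTGCNNAA, the loose form of the site that C/EBP dimers bind, were in none of the 6 stretches and in 9.34% of all genes, and the palindrome TTGCGCAA, which is contained in that form, was in 0.165% of all genes. The STAT-type letters TTCNNNGAA were in the stretch of Cebpe alone among the 6 (188 to 180 bases before the start), against 7.7% of all genes. GC content of the 250 bases was 81.6% for Cebpb, 66.8% for Cebpd, 66.4% for Cebpg, 64.8% for Cebpa, 61.2% for Cebpz and 54.8% for Cebpe, against a median of 53.2% over protein-coding genes.

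The motif named for NF-kB, the factor through which TNF receptors are best known to act, had no match in any of the 6 stretches of 250 bases, against 7.63% of all genes. In a window of 1000 bases, chosen after the data were seen as were the letters TGACG, it had 1 match before Cebpb and 1 before Cebpd and none before the other members, against 19.5% of all genes. These matches are shown within 30 bases on the plus strand, with the motif in capitals.
Cebpb, chr2:167530383-167530412: ggagttggggGGGGGGTCCCagaggtgtgg
Cebpd, chr16:15704746-15704775: tcgaatttcaGGAGGCTCCCactggctgcg
The Cebpb match lay 442 to 433 bases before the start and read on both strands, and the Cebpd match lay 394 to 385 bases before the start on the opposite strand. In the longer window TTGCNNAA matched before Cebpd (468 to 461 bases) and before Cebpg (695 to 688 bases), against 35.5% of all genes. TTCNNNGAA matched before Cebpa (603 to 595 bases) and Cebpg (789 to 781 bases), against 28.6%. Beyond the shorter stretches TGACG matched before Cebpz (293 to 289 bases), against 36.5% of all genes in the longer window. CCAAT matched there before Cebpb (371 to 367 bases) and Cebpe (251 to 247 bases), against 77.5%. These are matches of letters only, and no binding was measured.

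The libraries held between 23824717 and 32576077 counts, and of the 55414 IDs 13368 passed the filter on low counts and were tested. The library of TNF replicate 4 stood apart: the alpha-defensin (Defa) genes took 51.4% of its counts against 32% to 37.9% in the other 7 libraries, 16712 genes were detected against 17529 to 19135, and its TMM factor was 0.448 against 0.9952 to 1.357. TMM, the scaling used for every normalized CPM below, is meant to allow for such a difference, while scaling by library size alone is not. How well it does so for TNF replicate 4 was not tested. All 7 Paneth markers were measured and none was called, with a summed level of 312835 to 462782 normalized CPM in PBS libraries, 390997 to 454981 in TNF replicates 1 to 3 and 1211171 in TNF replicate 4. For markers of other cell types the summed levels are given in the same order. They were 9.89 to 14.6, 14 to 16.6 and 71.4 normalized CPM for 9 immune markers (1 called higher, Cd52, with Adgre1, Cd3e and Cd79a at 0 in all libraries), 97 to 135, 47.8 to 55.8 and 101 for 8 enterocyte markers (2 called lower, of which Apoa4 passed the filter only through its PBS values and so had to differ), and 7160 to 11190, 11243 to 12030 and 25451 for 7 goblet markers (1 higher, 2 lower). They were 10.3 to 13.2, 30.3 to 39.9 and 61 for 5 enteroendocrine markers (3 higher) and 11.9 to 27.3, 7.58 to 14.7 and 52.9 for 3 tuft markers (none called). For 5 stem cell markers (4 lower) PBS libraries had 1455 to 2352 and TNF libraries 1313 to 1856, and for 6 stroma markers 0.186 to 0.453 and 1.23 to 1.73. The 1 stroma marker tested, Vim, was called higher, but passed the filter only through its TNF values, so the filter itself favored a difference. The call of the enteroendocrine marker Gcg (log2 fold change 1.13, adjusted p = 0.0488, edgeR) was lost in 5 of the 8 fits that each leave out 1 library, and that of the goblet marker Clca1 in 3. The calls of Gcg, the goblet marker Muc2 and the stem cell marker Smoc2 were lost with library size alone. Muc2 was then at 0.96 (adjusted p = 0.0831, edgeR), and with TNF replicate 4 also left out it was called at 1.28 (adjusted p = 0.000679). The log2 fold change of Clca1 was -2.55, and -0.60 without PBS replicate 1. It was -1.33 with the replicate block (adjusted p = 0.193, edgeR) and -1.53 with limma-voom (adjusted p = 0.102), and both lost the call. The part of other cell types in the values below was not tested. In a bulk sample, fewer cells of a type and less RNA per cell cannot be told apart.

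Cebpd, which encodes C/EBP delta, showed the largest difference of the family. The gene (ENSMUSG00000071637) lies on chromosome 16 from 15705150 to 15708895 on the plus strand of GRCm39 and is annotated as 1 exon of 3746 bases. Its normalized CPM were 2.87, 2.72, 3.35 and 3.10 in PBS replicates 1 to 4 and 33.3, 47.7, 40.3 and 42.7 in TNF replicates 1 to 4. The groups lay far apart, and TNF replicate 4 was within the range of the other TNF libraries. The mean went from 3.01 ± 0.278 to 41.0 ± 6.02 normalized CPM (SD, n = 4 each), a log2 fold change of 3.77 (SE 0.15, 95% interval 3.44 to 4.09) with an adjusted p of 9.94e-08 by edgeR's quasi-likelihood test. Of all genes tested, 0.913% had a higher log2 fold change. In counts scaled by library size alone the TNF values were 36.8, 47.5, 42.8 and 19.1 CPM against 2.85 to 4.21 in PBS libraries, so that the groups were apart on that scale too.

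Cebpb, which encodes C/EBP beta (first described as a nuclear factor for interleukin-6), also rose. The gene (ENSMUSG00000056501) lies on chromosome 2 from 167530835 to 167532338, plus strand, as 1 exon of 1504 bases. PBS replicates 1 to 4 had 1.56, 2.23, 2.40 and 2.69 normalized CPM, from 58, 60, 61 and 119 reads counted, and TNF replicates 1 to 4 had 11.7, 11, 10.5 and 6.87, from 330, 317, 300 and 80. No TNF library overlapped a PBS library, and replicate 4 was the lowest of the TNF group. The mean went from 2.22 ± 0.483 to 10 ± 2.16 normalized CPM (SD, n = 4 each), with a log2 fold change of 2.18 (SE 0.22, interval 1.71 to 2.66) and an adjusted p of 2.01e-05 (edgeR). Scaled by library size alone, TNF replicate 4 fell to 3.08 CPM, inside the PBS range of 1.95 to 3.65, while the other TNF libraries stayed at 10.9 to 12.9. Without TNF replicate 4 the log2 fold change was 2.33 for Cebpb (adjusted p = 9.18e-07) and 3.76 for Cebpd (adjusted p = 7.45e-09). Of all genes tested, 2.66% had a higher log2 fold change than Cebpb.

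Cebpg, the gene of the partner without an activation domain, was higher in every TNF library than in any PBS library with TMM scaling. It (ENSMUSG00000056216) lies on chromosome 7 from 34745847 to 34756011 on the minus strand, with 5634 bases of exon in 3 blocks, and its annotated start is 62.7 kb from that of Cebpa. PBS replicates 1 to 4 had 33.7, 33.0, 33.2 and 45.6 normalized CPM and TNF replicates 1 to 4 had 63.1, 70.7, 72.5 and 78.4. PBS replicate 4 stood above the other PBS libraries. The means were 36.4 ± 6.16 and 71.2 ± 6.31 (SD, n = 4 each), with a log2 fold change of 0.97 (SE 0.14, interval 0.67 to 1.27) and an adjusted p of 0.000233 (edgeR). In counts scaled by library size alone TNF replicate 4 had 35.1 CPM, inside the PBS range of 34.6 to 61.8, and the other TNF libraries had 69.7 to 77. With library size alone the log2 fold change was 0.53 (adjusted p = 0.233, edgeR), and with that scaling and TNF replicate 4 left out it was 0.73 (adjusted p = 0.0107). With TMM scaling and without that library it was 0.93 (adjusted p = 9.12e-05).

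Cebpa, the differentiation factor of the family, differed less. It (ENSMUSG00000034957) lies on chromosome 7 from 34818718 to 34821353, plus strand, as 1 exon block of 2636 bases. The PBS values were 16.8, 19.0, 23.6 and 17.1 normalized CPM and the TNF values 28.9, 31.1, 32.0 and 21.1, in the order of replicates 1 to 4. The groups overlapped through 1 library of each, since TNF replicate 4 lay below PBS replicate 3. The means were 19.2 ± 3.11 and 28.3 ± 4.97 (SD, n = 4 each), with a log2 fold change of 0.57 (SE 0.16, interval 0.22 to 0.92) and an adjusted p of 0.0145 (edgeR). The log2 fold change was 0.70 without TNF replicate 4 (adjusted p = 0.00072) and 0.25 with library size alone (adjusted p = 0.637). The call was lost when PBS replicate 1, PBS replicate 4, TNF replicate 1 or TNF replicate 2 was left out, with adjusted p of 0.0817, 0.0635, 0.055 and 0.0718.

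Cebpz, the nucleolar member, had the smallest difference. The gene (ENSMUSG00000024081) lies on chromosome 17 from 79226433 to 79244514, minus strand, with 5642 bases of exon in 16 blocks. Its normalized CPM were 27.5, 21.8, 22.6 and 30.8 in PBS and 32.1, 30.5, 36.1 and 37.4 in TNF replicates 1 to 4, and PBS replicate 4 lay above TNF replicate 2. The means were 25.7 ± 4.28 and 34.0 ± 3.23 (SD, n = 4 each), with a log2 fold change of 0.40 (SE 0.14, interval 0.10 to 0.71) and an adjusted p of 0.0343 (edgeR). Of the 8 fits that each leave out 1 library, 6 lost the call, and it was kept only without PBS replicate 4 and without TNF replicate 4. With library size alone the value was -0.03 (adjusted p = 0.961, edgeR), and with TNF replicate 4 also left out it was 0.17 (adjusted p = 0.528). Under that scaling the direction thus changed with TNF replicate 4, and neither value was called.

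Cebpe, the granulocyte member (ENSMUSG00000052435, chromosome 14, 54947817 to 54949631, minus strand, 1241 bases in 2 exons), had 0 counts in all 8 libraries and was not tested. A count of 0 allows up to 3 counts, which correspond to 0.0679 to 0.258 normalized CPM in single libraries and cover counting error only. The highest of these limits was that of TNF replicate 4.

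Of the 6 members, 5 were tested and all 5 were called higher in TNF libraries. Over all 13368 genes tested, 43.0% were called in either direction and 23.3% were called higher, so calls were frequent. With library size alone only Cebpd and Cebpb of the 5 were called. In TMM-normalized CPM the groups did not overlap for 3 members (Cebpd, Cebpb and Cebpg), while 42.1% of all genes tested had groups that did not overlap. The groups of Cebpb and Cebpg overlapped with library size alone, through TNF replicate 4, and of the 3 only Cebpd stayed apart. The median log2 fold change over the 5 members was 0.97 and that over all genes tested was 0.03. Library-size scaling moved the median of all genes by -0.40, to -0.38, and Cebpz at -0.03 was above that median.

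**Figure D1:**
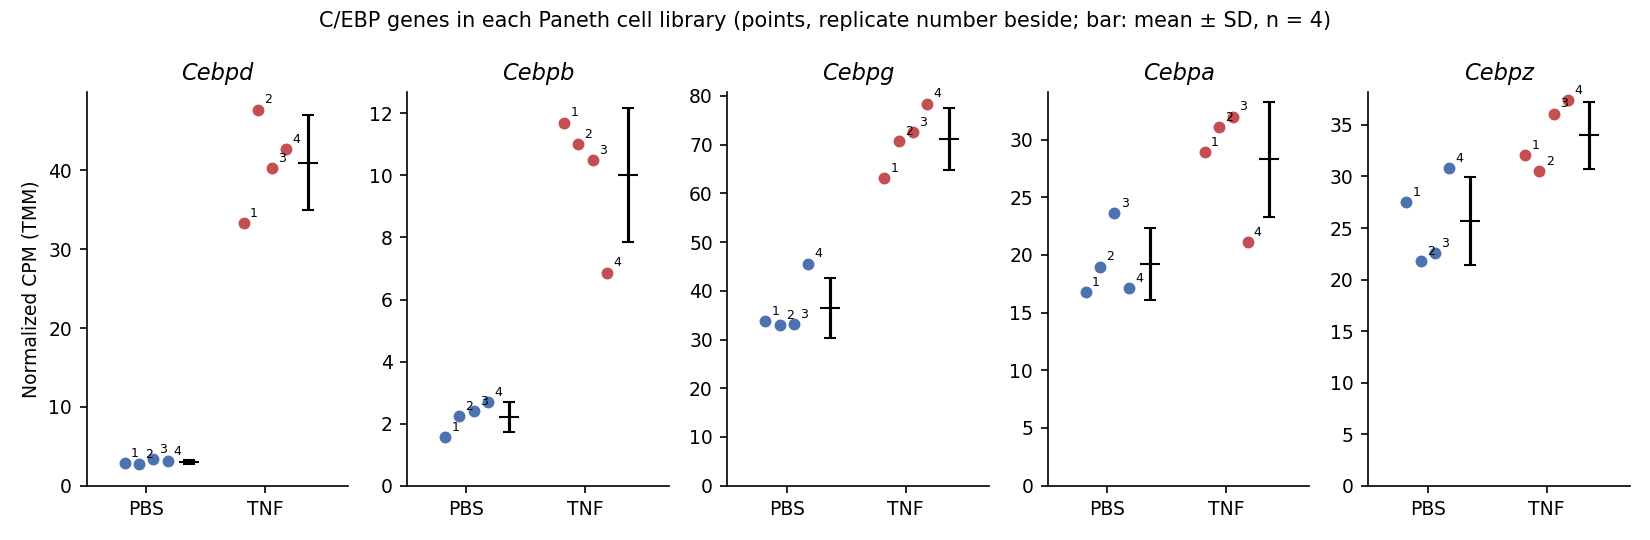
Normalized CPM (TMM scaling, vertical axis from 0, a scale of its own in each panel) of the 5 tested C/EBP genes in 4 PBS and 4 TNF Paneth cell libraries. Points are libraries with the replicate number beside them and bars are mean ± SD (n = 4). Cebpd, Cebpb and Cebpg have groups that do not overlap on this scale (with library size alone those of Cebpb and Cebpg do), while TNF replicate 4 lies within the PBS range of Cebpa and PBS replicate 4 lies above a TNF library of Cebpz. With library size alone Cebpz is at -0.03 (log2), below 0.

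Levels of different members were compared per kilobase of exon, since longer transcripts collect more reads. In PBS libraries Cebpa had 7.27 ± 1.18 normalized CPM per kb (range 6.39 to 8.94, n = 4) and Cebpg had 6.45 ± 1.09 (5.85 to 8.09), and these neighbours did not differ beyond their spread. Cebpz followed at 4.55 ± 0.758 (3.86 to 5.46), with no PBS library as high as the lowest of Cebpg. Cebpb was at 1.48 ± 0.321 (1.03 to 1.79) and Cebpd was lowest of the measured members at 0.803 ± 0.0741 (0.725 to 0.895). In TNF libraries the order was Cebpg at 12.6 ± 1.12 (11.2 to 13.9), Cebpd at 10.9 ± 1.61 (8.88 to 12.7) and Cebpa at 10.7 ± 1.89 (7.99 to 12.1), with ranges that overlapped from each member to the next. Cebpb at 6.67 ± 1.43 (4.57 to 7.79) and Cebpz at 6.03 ± 0.573 (5.41 to 6.63) came below them and overlapped each other. Cebpd thus went from the last of the 5 places to a level shared with Cebpa. Part of this order rests on the length used, since Cebpg and Cebpz are shorter when the canonical transcript replaces all exons, an alternative chosen after seeing the data. In PBS libraries Cebpg then had 7.70 ± 1.31 normalized CPM per kb (6.98 to 9.66), Cebpa 7.29 ± 1.18 (6.41 to 8.98) and Cebpz 6.28 ± 1.05 (5.32 to 7.54), so that the first pair changed places and Cebpz overlapped both. In TNF libraries Cebpg was then at 15.1 ± 1.34 (13.4 to 16.6), above every library of Cebpd (at most 12.7) and Cebpa (at most 12.2), and Cebpz at 8.32 ± 0.791 (7.46 to 9.14) had a higher mean than Cebpb. The overlap of Cebpd with Cebpa held with either length.

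The bZIP members can pair with one another, so their proportions were also described within each library, where no scaling between libraries enters. Each share is the percentage of the counts per kb of Cebpa, Cebpb, Cebpd, Cebpe and Cebpg together. These shares are compositions of messenger RNA, and protein was not measured. Cebpd made up 5.41%, 4.74%, 5.16% and 4.81% in PBS replicates 1 to 4 and 22.9%, 28.7%, 25.2% and 30.1% in TNF replicates 1 to 4. Cebpa made up 45.1%, 47.3%, 51.6% and 37.8% in PBS libraries and 28.3%, 26.6%, 28.4% and 21.1% in TNF libraries. For both genes every TNF library lay outside the PBS range, TNF replicate 4 included. Cebpb went from a mean of 9.16% ± 1.33 to 16.2% ± 3.27 (SD, n = 4 each) without overlap, and Cebpg from 40.4% ± 5.55 to 31.0% ± 3.91 with overlap. The ratio of Cebpd to Cebpa per kb was 0.112 ± 0.0139 in PBS and 1.05 ± 0.276 in TNF libraries, from 0.809 in TNF replicate 1 to 1.43 in TNF replicate 4. Cebpb to Cebpa went from 0.205 ± 0.0501 to 0.620 ± 0.0636, and Cebpd to Cebpb from 0.563 ± 0.126 to 1.73 ± 0.569. The ratio of Cebpg to Cebpa was 0.912 ± 0.249 in PBS and 1.22 ± 0.347 in TNF libraries, with overlapping ranges of 0.659 to 1.24 and 1.02 to 1.74. Without TNF replicate 4, the difference of the mean shares was 20.6 percentage points for Cebpd, -17.7 for Cebpa, 8.47 for Cebpb and -11.3 for Cebpg. With all libraries these differences were 21.7, -19.4, 7.08 and -9.39, and with raw counts in place of counts per kb they were 22.2, -12.9, 3.07 and -12.4, so that the sizes for Cebpa and Cebpb rest on the length scaling. Together the bZIP members had 16.0 ± 1.54 normalized CPM per kb in PBS and 41.0 ± 3.11 in TNF libraries.

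**Figure D2:**
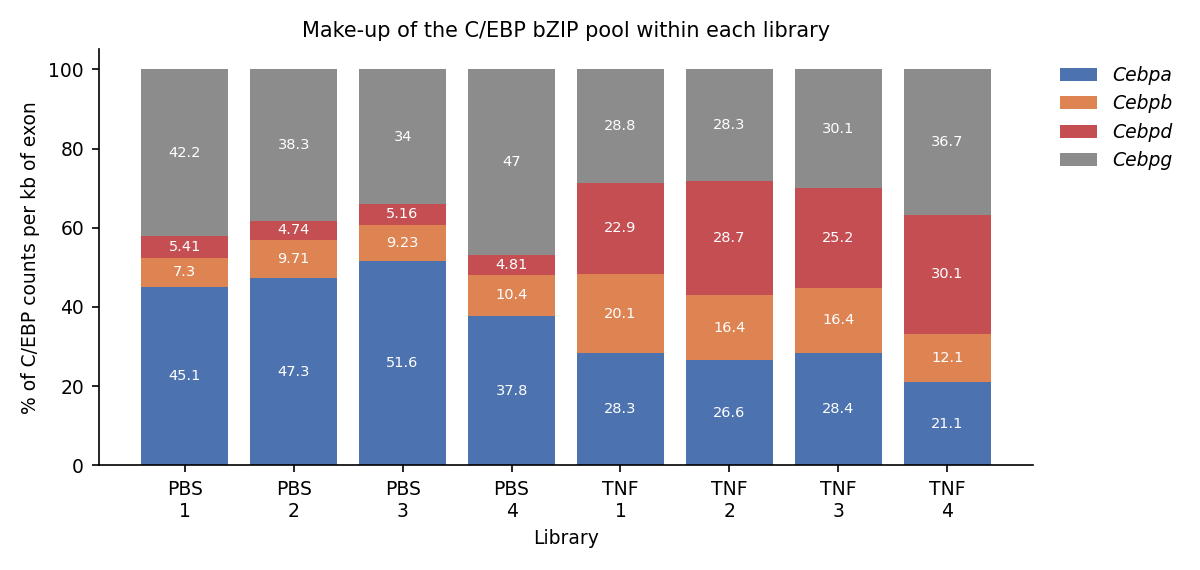
Stacked bars give, for each of the 8 libraries, the percentage of the counts per kb of exon of the bZIP C/EBP genes that each gene took (Cebpe is at 0 and not drawn). Cebpd takes 4.74% to 5.41% of the PBS bars and 22.9% to 30.1% of the TNF bars, and Cebpa 37.8% to 51.6% and 21.1% to 28.4%.

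Several members share bases with genes on the other strand. The library kit named in the labels keeps strand, but whether the counting used it was not given in any source used here, so reads of such partners cannot be told apart. Peds1, a plasmanylethanolamine desaturase gene, covers 312 exon bases of Cebpb on the opposite strand, which is 20.7% of the Cebpb exon. It went from 1.07 ± 0.148 to 3.75 ± 0.508 normalized CPM (log2 fold change 1.80, SE 0.20, adjusted p = 3.79e-05, edgeR). Spidr, a DNA repair scaffold gene, covers 563 bases (15%) of Cebpd and had 5.92 ± 0.588 and 5.64 ± 1.15 normalized CPM (adjusted p = 0.821). Its log2 difference was -0.05 in all libraries and 0.08 without TNF replicate 4. Cebpzos shares 1670 bases (29.6%) with Cebpz and had 6.12 ± 0.3 and 6.60 ± 3.92. Its TNF values were 4.26, 4.67, 4.99 and 12.5 normalized CPM, the last in replicate 4. Its log2 difference was 0.06 in all libraries (adjusted p = 0.901) and -0.39 without that library (adjusted p = 0.026), opposite in sign to Cebpz. Gm45091 shares 51 bases (1.93%) with Cebpa and was not called (log2 difference 0.39, adjusted p = 0.168). Gm45095, a noncoding gene, shares 4 bases with Cebpg and was higher (1.05, SE 0.32, adjusted p = 0.0221), a call lost without PBS replicate 1 or PBS replicate 3 (adjusted p of 0.0711 and 0.0621) and with library size alone (0.294). On the strand of Cebpg, Gm44836 and Gm45094 had at most 2 and 4 counts in any library and were not tested.

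Of 11 bZIP genes whose products pair with C/EBP proteins or compete for their sites, 8 were tested, 2 were called higher, 3 lower and 3 were not called, where 43.0% of all genes tested were called and 23.3% were called higher. Their median log2 fold change was -0.02 against 0.03 over all genes. Atf3, an early stress factor, had 1.18, 0.967, 1.93 and 1.79 normalized CPM in PBS and 8.98, 8.17, 12.1 and 8.16 in TNF replicates 1 to 4, without overlap (log2 fold change 2.67, SE 0.24, adjusted p = 1.03e-05, edgeR). Nfil3, a repressor that binds the sites of the PAR bZIP activators, had 4.51 to 6.31 in PBS and 15.5 to 21.6 in TNF libraries (1.90, SE 0.16, adjusted p = 6.32e-06). Tef, which belongs to those activators, fell from 8.06 ± 1.40 to 2.78 ± 0.589 normalized CPM (-1.57, SE 0.19, adjusted p = 8.53e-05). Dbp, another of them, had 0.949 ± 0.0384 in PBS and 0.141 ± 0.104 in TNF libraries. It is 1 of the 3 lower calls, but it passed the filter on low counts only through its PBS values and so had to differ, and no support is taken from its call. Their relative Hlf had at most 0.298 normalized CPM and was not tested. Ddit3, which encodes CHOP, a C/EBP-related protein that blocks its partners from classical sites, also fell, from 3.01 ± 0.406 to 1.88 ± 0.145 (-0.68, SE 0.18, adjusted p = 0.0115). Atf4, the stress factor that pairs with C/EBP beta and gamma, was at 157 ± 11 and 165 ± 18.8 normalized CPM (log2 difference 0.07, adjusted p = 0.666), and the difference was -0.04 without TNF replicate 1 and -0.30 with library size alone. Atf5 and Batf2 were not called either, and Batf and Batf3 were not tested. Atf3, Nfil3, Tef and Ddit3 kept their calls and directions under library size alone.

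Of 13 genes whose products act on C/EBP proteins, 12 were tested, 2 were called higher, 2 lower and 8 were not called, a share no larger than the 43.0% over all genes tested. The median log2 fold change was 0.11. Trib1, a pseudokinase that brings C/EBP alpha to the ubiquitin ligase of Cop1, went from 25.9 ± 1.48 to 59.7 ± 7.30 normalized CPM (1.21, SE 0.12, adjusted p = 1.75e-05, edgeR), and Trib3 of the same family from 4.25 ± 1.20 to 8.05 ± 1.49 (0.92, SE 0.22, adjusted p = 0.00571). Both had groups without overlap, and neither was called with library size alone (0.84, adjusted p = 0.0807, and 0.55, adjusted p = 0.291). Cop1 itself had 21.1 and 19.5 normalized CPM (-0.12, adjusted p = 0.401). Ep300, a coactivator that acetylates histones, went from 32.8 ± 7.56 to 22.7 ± 3.27 (-0.54, SE 0.17, adjusted p = 0.0258), with overlapping groups and a call that was lost without TNF replicate 3 (adjusted p = 0.0672). Mapk3, the ERK1 kinase that phosphorylates C/EBP beta, went from 144 ± 7.42 to 115 ± 6.26 (-0.33, SE 0.11, adjusted p = 0.0298), and 6 of the 8 fits with 1 library left out lost this call. Those were all but the fits without PBS replicate 4 and without TNF replicate 4, with adjusted p from 0.059 to 0.102. It was also lost with the replicate block (-0.33, adjusted p = 0.0644), without the low-count filter (-0.37, 0.114) and with library size alone (-0.70, 0.12). With library size alone and TNF replicate 4 left out Mapk3 was called (-0.45, adjusted p = 0.00708).

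**Figure D3:**
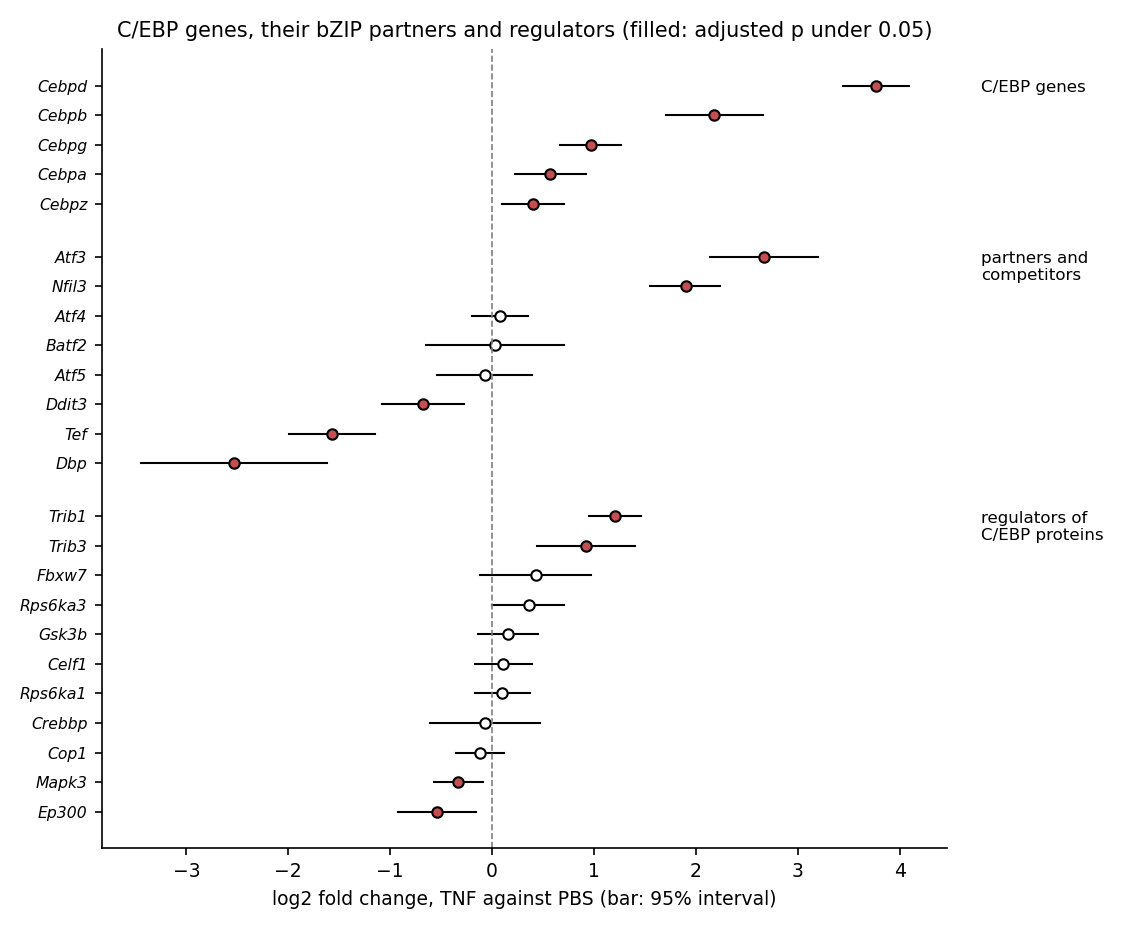
Log2 fold change of TNF against PBS (horizontal axis, TMM scaling) with its 95% interval for the tested C/EBP genes, bZIP partners and competitors, and regulators of C/EBP proteins, of which 1 that was not called is not drawn. Filled points have an adjusted p under 0.05. The 5 C/EBP genes lie between 0.40 and 3.77, and the partners run from -2.53 (Dbp, which had to differ since it passed the filter only through its PBS values) to 2.67 (Atf3). With library size alone Cebpz is at -0.03 and Cebpa, Cebpg, Trib1 and Trib3 are not called.

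Of 13 receptors and factors known to act on the Cebpb and Cebpd genes, 11 were tested, 6 were called higher, 2 lower and 3 were not called, where 43.0% of all genes tested were called and 23.3% were called higher. The median log2 fold change was 0.75. Osmr, the oncostatin M receptor, had 0, 0.0372, 0.0453 and 0.107 normalized CPM in the PBS libraries and 13.1, 22.4, 17.0 and 16.4 in TNF replicates 1 to 4 (8.26, SE 0.36, adjusted p = 1.54e-07, edgeR). It passed the filter on low counts only through its TNF values and so had to differ, and its value was 8.90 without PBS replicate 1. Il6st, the gp130 chain that this receptor shares with the interleukin-6 receptor, went from 28.3 ± 4.10 to 166 ± 29.6 (2.55, SE 0.17, adjusted p = 1.41e-06). The NF-kB subunit genes Rela and Nfkb1 went from 19.3 ± 1.36 to 95.6 ± 20.7 (2.31, SE 0.16, adjusted p = 2.15e-06) and from 26.2 ± 3.62 to 107 ± 18.1 (2.02, SE 0.15, adjusted p = 3.85e-06). The remaining calls, named after their values were seen, were Stat3 (2.02) and Creb1 (0.75) higher, and Nr3c1, the glucocorticoid receptor gene (-1.38), and Il6ra (-2.18) lower. Creb1 was at 0.31 and not called with library size alone (adjusted p = 0.484), nor was it called with that scaling and TNF replicate 4 left out (0.49, adjusted p = 0.0552). Nfkbiz, Il17ra and Il17rc were not called. Il6 itself had 0 counts in every library.

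Target genes known from liver and macrophages were mostly too low to test. Of 22 acute phase and inflammatory targets, 7 passed the filter and 7 were called higher. Of these, 6 passed only through their TNF values, so the filter itself favored a difference, and no support is taken from that count. The other 15 members were not tested. Of the list, 13 had at most 10 counts in any library and 3 had 0 everywhere. Tnf itself went from 0.320 ± 0.169 to 19.0 ± 3.13 normalized CPM (5.80, SE 0.29, adjusted p = 3.18e-07, edgeR), and Nos2, the inducible nitric oxide synthase gene, from 1.85 ± 0.499 to 167 ± 92.3 (6.48, SE 0.42, adjusted p = 1.15e-06). Nos2 values in TNF replicates 1 to 4 were 124, 302, 97.0 and 144, all above the PBS range of 1.15 to 2.29. Lcn2, which encodes the iron-sequestering lipocalin 2, had 0.0226 to 0.107 in PBS and 3.35 to 10.7 in TNF libraries (6.89, SE 0.48, adjusted p = 2.07e-06). Cxcl1, a neutrophil chemokine gene, had 0 counts in the 4 PBS libraries and 1.53, 2.91, 3.30 and 2.58 normalized CPM in TNF replicates 1 to 4. Its mean was at least 27.3-fold higher in TNF libraries when the PBS group is set to the mean of the limits that 3 counts per library allow, and its adjusted p was 2.6e-05. The remaining calls, named after their values were seen, were 3 further acute phase genes with wide intervals. The complement gene C3 differed by 4.57 on the log2 scale (SE 0.93, adjusted p = 0.00246), by 7.99 without PBS replicate 1, the only PBS library in which it had counts, and by 3.68 without TNF replicate 2. That library held 74 counts of C3 against 11 to 16 in the other TNF libraries, and it also held 528 counts of the liver gene Alb against at most 5 there. Their part in the value of C3 was not tested. The fibrinogen chain genes Fga and Fgb had 4.06 (SE 0.73, adjusted p = 0.00121) and 4.21 (SE 0.81, adjusted p = 0.0018). The fit that left out TNF replicate 3 gave 3.42 for Fga and 3.27 for Fgb, and the one that left out PBS replicate 1 gave 4.96 for Fga. Among the genes not tested, Cxcl2, a chemokine gene like Cxcl1, had 0 counts in the 4 PBS libraries and 0.355 to 1.19 normalized CPM in the TNF libraries, with a mean at least 7.98-fold higher by the same limits. Crp went the other way, with 4, 3, 2 and 6 counts in PBS replicates 1 to 4 and 0 in the TNF libraries. The serum amyloid genes Saa1, Saa2 and Saa3, the haptoglobin gene Hp and the orosomucoid genes Orm1 and Orm2 stayed at means of at most 0.158 normalized CPM in either group.

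Of 13 metabolic and differentiation targets 6 were tested, 1 was called higher, 1 lower and 4 were not called, against 43.0% called over all genes tested. The median log2 fold change was -0.02. Tat, the liver enzyme tyrosine aminotransferase, had 0.0805, 0.186, 0.670 and 0.362 normalized CPM in PBS and 96.2, 118, 135 and 58.5 in TNF replicates 1 to 4 (8.34, SE 0.46, adjusted p = 4.52e-07, edgeR). It passed the filter only through its TNF values, so the filter itself favored a difference. Cps1, the urea cycle enzyme that small intestinal epithelium also makes, went from 442 ± 82.0 to 245 ± 39 normalized CPM (-0.85, SE 0.18, adjusted p = 0.00323), with no overlap. Pck1, a gluconeogenic enzyme, had 16.7 ± 2.82 and 18.0 ± 4.95 (log2 difference 0.11, adjusted p = 0.676), and the difference was -0.14 without TNF replicate 1. Of 11 granulocyte targets only Mmp8 was tested (log2 difference 0.39, adjusted p = 0.549, and -0.34 without TNF replicate 4), at 4.30 normalized CPM in TNF replicate 4 and 0.885 to 1.46 in the other libraries. A total of 7 of these 11 had no count in any library, as had Cebpe.

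**Figure D4:**
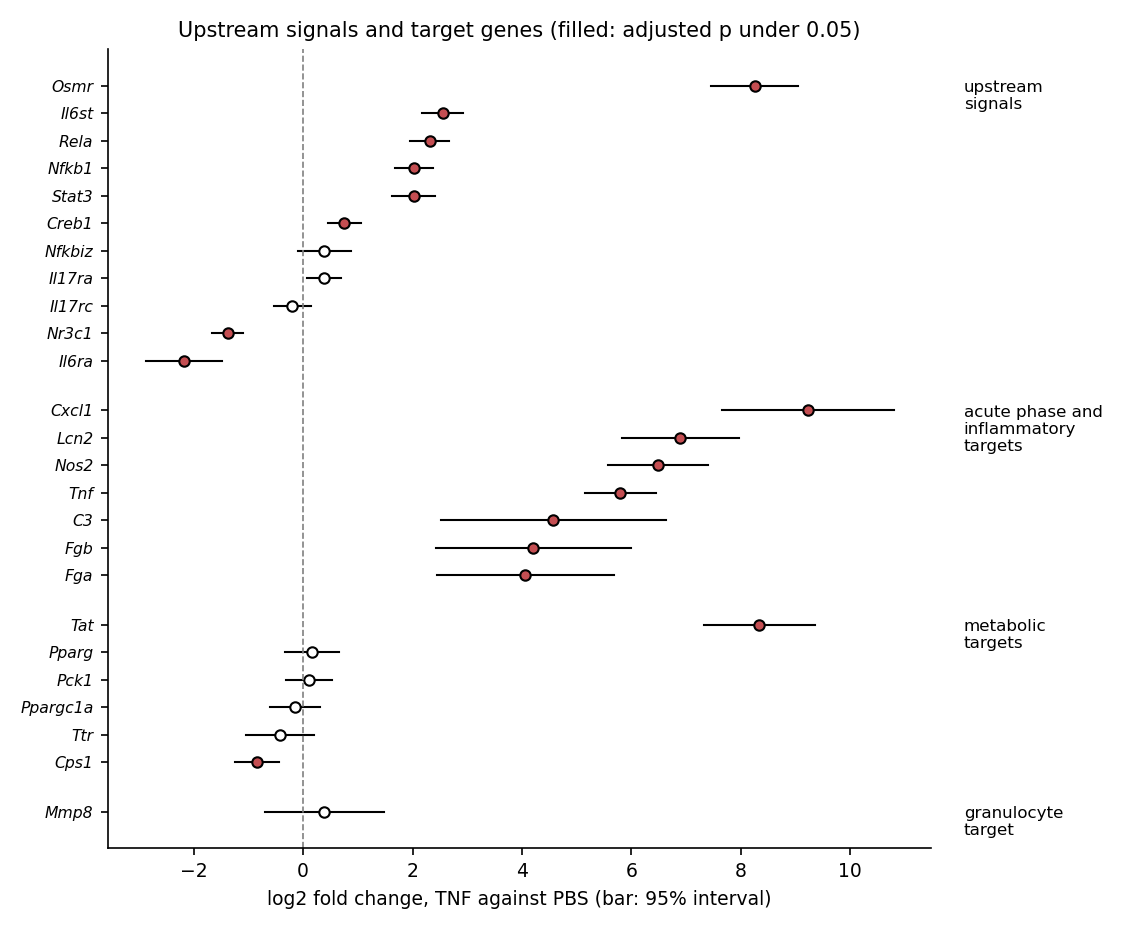
Log2 fold change of TNF against PBS (horizontal axis, TMM scaling) with its 95% interval for the tested genes among upstream signals and known C/EBP target genes. Filled points have an adjusted p under 0.05. The value of Cxcl1 is fitted against 4 PBS libraries at 0 and is no bound. Osmr, Tat and 6 of the 7 acute phase genes passed the filter only through their TNF values, so the filter itself favored a difference. The interval of Nos2 lies far to the right of 0.

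The genes whose pattern was most like that of each member were taken from 8205 tested protein-coding genes, by Pearson's r of log2 CPM over the 8 libraries. The libraries share the contrast between the groups and the position of TNF replicate 4, so r is given as a description, together with r after each group's mean was removed. For Cebpd, 764 genes had r above 0.95, led by Mapkapk3 (0.999, within groups 0.798), Chmp2b (0.998, 0.773) and F11r (0.998, 0.828). For Cebpb there were 552, led by Cdc40 (0.997, within groups 0.969), Ist1 (0.996, 0.947) and Polr1f (0.994, 0.914). For Cebpg there were 354, led by Ppfibp1 (0.994, within groups 0.953), Kansl1l (0.990, 0.901) and Nlrc4 (0.990, 0.914). Fewer genes followed Cebpz and Cebpa, 52 and 38. Those most like Cebpz were Dst (0.993, within groups 0.983), Myo9b (0.988, 0.975) and Akap13 (0.985, 0.976), and those most like Cebpa were Bysl (0.983, 0.957), Icmt (0.982, 0.952) and Jund (0.978, 0.962). Among the members, Cebpb and Cebpd had r = 0.96 over the 8 libraries and -0.04 within groups, so their likeness lay in the group difference. Cebpg and Cebpz had 0.893 and 0.786 within groups, and Cebpa and Cebpz 0.371 and -0.622.

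**Figure D5:**
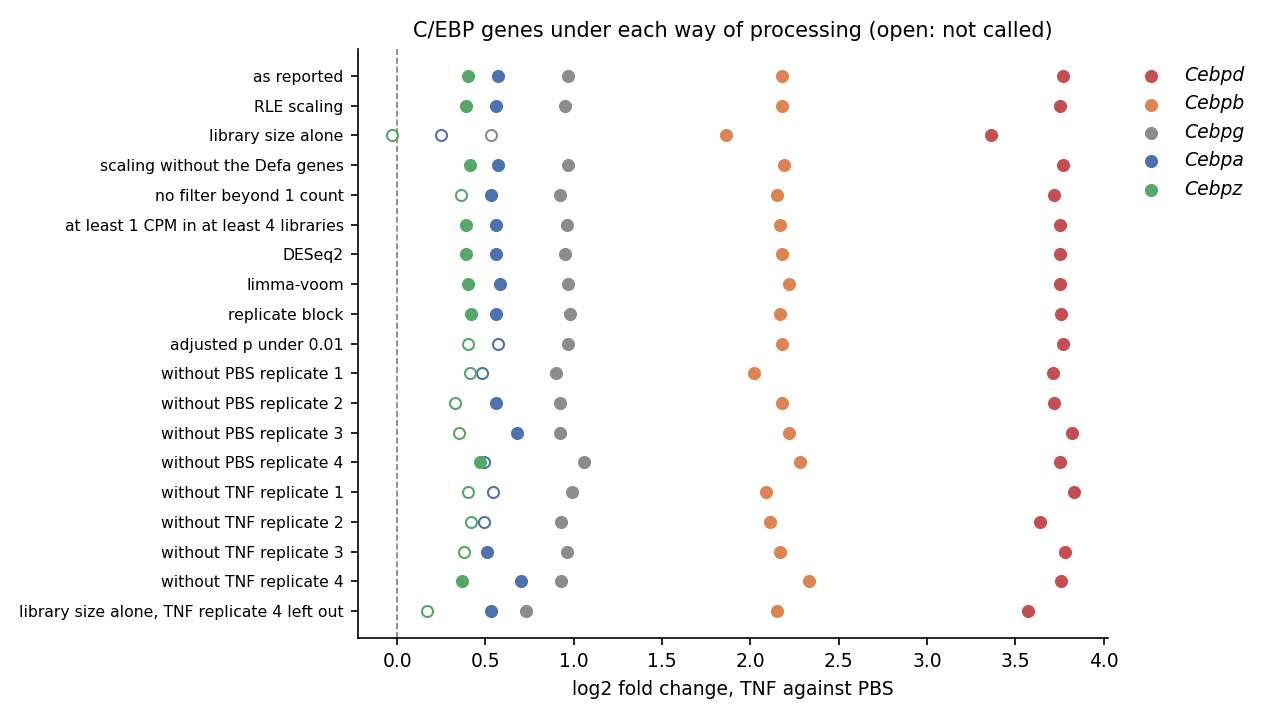
Log2 fold change of TNF against PBS (horizontal axis) for the 5 tested C/EBP genes under each way of processing (vertical axis), with open points where the gene was not called. Cebpd lies between 3.36 and 3.83 and Cebpb between 1.86 and 2.33 with filled points throughout, while Cebpz crosses 0 with library size alone and has open points in most of the fits that leave out 1 library.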

How the data were processed

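Paneth cell RNA was sequenced in 4 PBS and 4 TNF libraries, numbered as in their labels. The authors deposited raw counts for 55414 Ensembl gene IDs with no normalization. Per the submitters' processing notes FastQC 0.12, STAR 2.7.10a, DESeq2 and the genome mm39 were used. The counter, its strand setting and its treatment of reads matching several genes were not given in any source used here. No per-sample column was left unused. GENCODE release 39 for mouse (GRCm39) gave symbols and positions for 54749 IDs and none for 665, which stayed in library sizes and tests.

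Counts were tested with the quasi-likelihood test of edgeR 4.0.16 in R 4.3.3, with TMM factors, filterByExpr, no covariate and Benjamini-Hochberg adjustment over all 13368 genes tested (called under 0.05), and the code was tested on simulated data. Normalized CPM are counts over TMM-adjusted library sizes. Log2 fold changes are TNF against PBS, with SE from the F statistic. Genes such as Cebpe with too few counts were not tested. Log2 CPM for likeness used a prior count of 2 and genes with a mean of at least 5 CPM. Limits and intervals on counts cover counting error only.

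The members, 6 gene lists and 8 marker lists were chosen with earlier results of these data known. Named were all members, the genes overlapping them, the 4 called genes of each list with the smallest p, all called partners, and the 3 genes most like each member. Other listed genes given in the text, such as those not called or not tested, were chosen after their values were seen. Alternatives were scaling by library size alone, by RLE or without Defa genes, other filters (a minimum of 1 count, or of 1 CPM in 4 libraries), limma-voom (limma 3.58.1), DESeq2 1.42.0, a replicate block, a threshold of 0.01 and each library left out. The series text calls the libraries biological replicates, and p-values measure the spread between them. Replicate numbers did not pair the libraries. Motifs were searched on both strands of the bases before the starts of the canonical transcripts of 21757 protein-coding genes. Protein sequences were not used here, and 1 regulator enters the counts of its list but is not reported on its own here.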

Additional observations from a re-analysis of the deposited data

Results flagged for a closer look

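In 131 groups of 4 libraries (members, overlapping genes and the genes reported from the 6 lists, with at least 4 counts in a library of the group) the highest or lowest library was compared with the others by Dixon's criterion at the 95% level. Of these, 20 (15.3%) held a library far from the rest. The criterion flags about 5% of groups of independent, normally spread values. A group with counts in 1 library alone, such as Orm1 or C3 below, is always flagged, so these shares cannot be compared. Cebpg had 45.6 normalized CPM in PBS replicate 4 and 33 to 33.7 in the other PBS libraries. Cebpzos, which overlaps Cebpz, had 12.5 in TNF replicate 4 against 4.26 to 4.99. Nfil3 had 6.31 in PBS replicate 3 against 4.51 to 4.64. Mapk3 had 105 in TNF replicate 4 against 117 to 119. Atf4 had 193 in TNF replicate 1 against 155 to 157, Pck1 had 25.4 in the same library against 15.1 to 15.8 and Cop1 had 17 there against 20.1 to 20.6. Mmp8 had 4.3 and Ttr 3.09 in TNF replicate 4, against 0.913 to 1.03 and 1.87 to 1.93. Atf5 had 4.09 in TNF replicate 2 against 5.33 to 5.57. In PBS replicate 4 Il6ra had 15.1 against 6.7 to 7.64. In PBS replicate 2 Il17rc had 13.7 against 11 to 11.4 and Hlf had 0.298 (8 counts) against at most 0.0268. In PBS replicate 1 Pparg had 2.98 against 2.34 to 2.42 and C3 had 0.161 (6 counts) against 0. Alb, the gene of the liver protein albumin, had 18.3 normalized CPM (528 counts) in TNF replicate 2 against 0 to 0.43 in the other TNF libraries. Fgg, a fibrinogen chain gene, had 0.312 (9 counts) in the same library against 0, and 0.349 (13 counts) in PBS replicate 1 against at most 0.0372. In TNF replicate 2 there were also 0.346 (10 counts) of Hp against at most 0.0355 and 0.173 (5 counts) of Orm1 against 0. The causes were not tested.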

How the results depend on the processing

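Cebpd and Cebpb kept their direction and call under every alternative run. The log2 fold changes with 1 library left out ran from 3.64 to 3.83 for Cebpd, 2.02 to 2.33 for Cebpb, 0.90 to 1.06 for Cebpg, 0.48 to 0.70 for Cebpa (call lost in 4 of 8) and 0.33 to 0.47 for Cebpz (lost in 6). With library size alone they were 3.36, 1.86, 0.53 (adjusted p = 0.233), 0.25 (0.637) and -0.027 (0.961). With TNF replicate 4 also left out, which was chosen after seeing the data, they were 3.57, 2.15, 0.73, 0.53 (adjusted p = 0.00644) and 0.17 (0.528). At an adjusted p under 0.01 Cebpa (0.57) and Cebpz (0.40) were not called, and Cebpz was not called without the low-count filter (0.36, adjusted p = 0.101). Members called higher numbered 2 with library size alone, 3 at the 0.01 threshold and 3 to 5 with 1 library left out, with 3 without PBS replicate 1, TNF replicate 1 or TNF replicate 2.

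Genes called numbered 3182 with library size alone (757 higher, 23.8% of calls against 54.3% with TMM), and 1691 were lower at the 0.01 threshold. With 1 library left out 4757 to 6923 were called, 2469 to 3657 higher and 2288 to 3266 lower. Regulators called higher numbered 0 with library size alone, and those lower 1 with library size alone, no filter or the replicate block, 0 at the 0.01 threshold and 0 to 2 with 1 library left out. Acute phase targets called higher numbered 4 with a filter at 1 CPM. Metabolic targets called higher numbered 2 without a filter, and those lower 2 without a filter, with DESeq2 and with library size alone minus TNF replicate 4, and 1 to 2 with 1 library left out. Granulocyte targets called numbered 1 without a filter and with DESeq2. Spidr ran from -0.12 to 0.079 with 1 library left out, the last without TNF replicate 4. Cebpzos turned to -0.52 with library size alone, -0.0161 without a filter, -0.18 with limma-voom, -0.0435 with the replicate block, -0.00456 without PBS replicate 1, -0.39 without TNF replicate 4 and -0.57 with library size alone minus that library. Atf4 turned to -0.30 with library size alone and -0.0652 with that scaling minus TNF replicate 4, and ran from -0.0405 to 0.11 with 1 library left out. Pck1 turned to -0.24 with library size alone and ran from -0.14 to 0.19. Mmp8 turned to -0.24 with library size alone, -0.00398 with limma-voom and -0.52 with library size alone minus TNF replicate 4, and ran from -0.34 to 0.62. With raw counts in place of counts per kb the pool share differences were -12.9 points for Cebpa and 3.07 for Cebpb (-19.4 and 7.08 per kb). Over 49 listed, marker and overlapping genes and 873 combinations with an alternative, 815 kept direction and call, 41 lost the call and 17 turned. Of those that turned, 2 passed the threshold in the new direction, both for Cebpzos without TNF replicate 4. The causes were not tested.

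Same-numbered PBS and TNF libraries deviated together with r of 0.0229, 0.0663, -0.144 and -0.126, and 2 of 4 correlated best with their own number. No pairing by number was seen, but 4 libraries per group are too few to exclude one. With the replicate block 5087 genes were called (5746 without it), and Cebpd was at 3.76, Cebpb at 2.17, Cebpg at 0.98, Cebpa at 0.56 and Cebpz at 0.42, all still called. For Cebpe and most acute phase targets counts were 0 or few, and whether depth or absence of the RNA lies behind this was not tested.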
